A study of Mus musculus with 16 samples.

Results

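The oligodendrocyte precursor genes described here are 10 genes, Pdgfra, Cspg4, Vcan, Ptprz1, C1ql1, Lhfpl3, Gpr17, Neu4, Bmp4 and Tcf7l2, chosen by symbol as markers of precursors and of precursors already committed to becoming oligodendrocytes. They were followed by RNA sequencing in brains of 16 C57BL/6 mice, described as whole brains, with 1 library per mouse. All 10 were among the 49671 genes of the count files and among the 18875 genes with enough counts to be tested. In LPS-LPS mice the pregnant dam had received lipopolysaccharide (LPS, a bacterial glycolipid sensed by innate immune cells) by intraperitoneal injection at gestation day 16, and the male offspring received LPS at postnatal day 30. LPS-Saline mice had LPS first and saline second, Saline-LPS mice had saline first and LPS second, and Saline-Saline mice had saline both times. Each group held 4 mice, and all brains were taken at postnatal day 32. The labels give no genotype other than the strain, and the word before the hyphen was read as the dam's injection, an order that the labels do not spell out. With the opposite order, the names of the first and second injection would trade places and the interaction would not change. No label names a litter, so mice with the same first injection may share a dam, and p-values refer to the spread between mice.

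Oligodendrocyte precursors are the dividing glial cells that carry the PDGF receptor alpha and the proteoglycan NG2 and that persist in the brain into adult life. On commitment they leave the cell cycle and pass through a short-lived stage marked by Gpr17, Bmp4 and Tcf7l2 before they switch on the genes of compact myelin. In mice, myelination of the forebrain is well under way but not complete at the age studied. Some of these genes are not private to the lineage: Ptprz1 and Vcan are also transcribed in other neural cells, Pdgfra in fibroblasts, Cspg4 in mural cells of vessels and Tcf7l2 in thalamic neurons. In RNA from a whole brain, fewer cells of a type and less RNA per cell cannot be told apart.

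Libraries held 25729919 to 38571036 gene counts, so that 1 read stood for 0.0259 to 0.0389 CPM (gene counts scaled to a common library size). Some libraries stood apart within their group. Gabra6, which encodes a GABA receptor subunit typical of granule cells of the cerebellum, was at 0 to 0.277 CPM in 8 libraries spread over all 4 groups and at 2.51 to 70.4 CPM in the other 8. Whether every sample held the cerebellum is therefore not clear, although the brains are described as whole. This split nearly followed the replicate number. Replicates 3 and 4 were at 1 CPM or more except Saline-Saline replicate 3 (0.277 CPM), and replicates 1 and 2 were under it except LPS-LPS replicate 1 (2.51 CPM). LPS-LPS replicate 3 held 503.3 CPM of Xist, a transcript of females, and 0 counts of Ddx3y from the Y chromosome, so that this library goes against its description as male. Growth hormone transcripts (Gh), which come from the pituitary, were abundant in LPS-LPS replicate 1 (502.5 CPM) and present in Saline-LPS replicate 1 (44.1 CPM). The precursor genes that passed, and some of the list counts that follow, are also given without LPS-LPS replicates 1 and 3. Not given that way are the PDGF, mural cell, Wnt and TCF, proliferation, hindbrain, microglia, neuron, pituitary, cerebellum and choroid plexus counts.

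Per kilobase of exon, a scale on which levels of different genes can be compared, the precursor genes spanned about 1 order of magnitude. Gpr17 was highest at 15.4 ± 2.53 CPM per kb (SD, n = 16), followed by Ptprz1 at 13.4 ± 1.47 and C1ql1 at 12.4 ± 1.3 CPM per kb, and these neighbours did not differ beyond their spread. Lhfpl3 stood at 9.37 ± 1.01 and Pdgfra at 5.78 ± 0.389 CPM per kb. Tcf7l2 (3.32 ± 0.664 CPM per kb) and Neu4 (3.27 ± 0.27) were within each other's spread, above Bmp4 (2.51 ± 0.32), Cspg4 (1.93 ± 0.368) and Vcan (1.49 ± 0.148). Mbp, the myelin basic protein gene, was far above all of them at 725.7 CPM per kb. Enpp6, of newly forming oligodendrocytes, lay among the precursor genes at 2.55 CPM per kb.

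**Figure D1:**
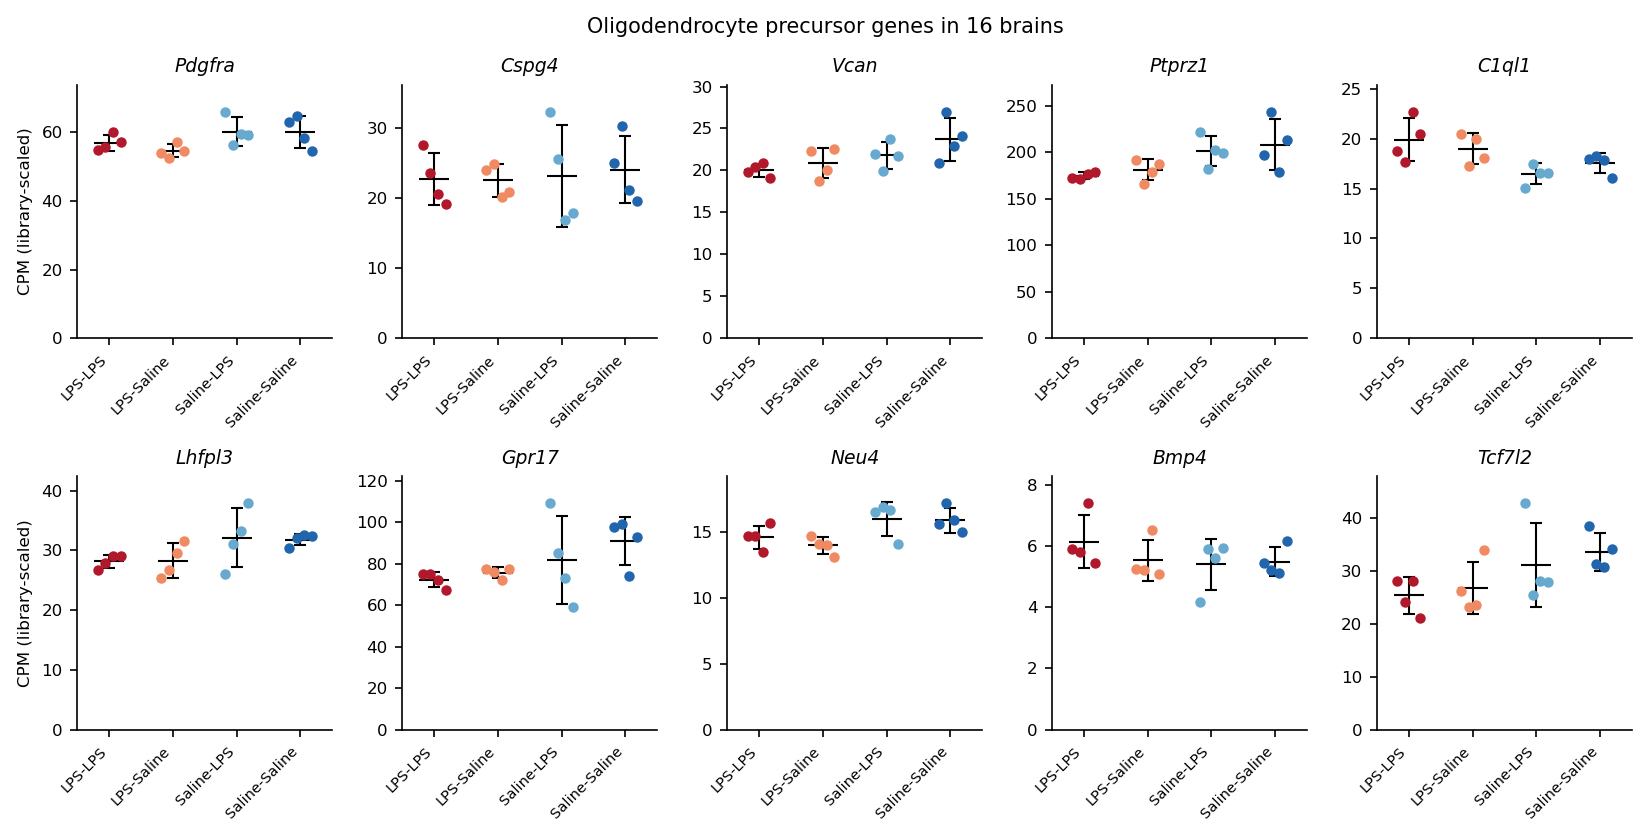
CPM of each precursor gene in every library, by group (LPS-LPS, LPS-Saline, Saline-LPS, Saline-Saline); points are mice, horizontal bars the mean and whiskers the SD of 4 mice. Ptprz1 averaged 178.1 CPM after first-injection LPS and 205.1 CPM after first-injection saline, while C1ql1 averaged 19.5 and 17 CPM.

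After first-injection LPS the precursor genes moved little. Over both second injections, 8 of the 10 stood below first-injection saline with a median log2 fold change of -0.16, against -0.01 over all tested genes, of which 51.7% were below 0. With edgeR's quasi-likelihood test, adjusted by Benjamini-Hochberg over all tested genes, Ptprz1 fell and C1ql1 rose, and the other 8 did not pass the threshold of 0.05. Of all tested genes 7.82% passed in this comparison, 4.9% higher and 2.92% lower, so that 2 of 10 lies above the background share but rests on 2 genes. DESeq2 called 4 of the 10, these and Neu4 and Tcf7l2, with 11.1% of all tested genes. At an unadjusted p under 0.05 there were 8 precursor genes, against 23.2% of all tested genes. The 10 genes were chosen with earlier results of these data known, so no conclusion is drawn from these shares.

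In the single pairs of groups 0 precursor genes passed by edgeR, and DESeq2 called 1, Ptprz1 for LPS-LPS against Saline-Saline. The lowest adjusted p by edgeR was 0.254 for LPS-Saline against Saline-Saline (0.18% of all tested genes passed), 0.141 for LPS-LPS against Saline-LPS (0.609% passed) and 0.0524, for Ptprz1, for LPS-LPS against Saline-Saline (6.56% passed). The unadjusted p was under 0.05 for 4, 2 and 5 of the 10 genes in these comparisons. LPS-LPS ranges that did not overlap Saline-Saline ranges were seen for Tcf7l2 and Lhfpl3, both lower (17.4% of all tested genes did not overlap), and those that did not overlap Saline-LPS for C1ql1, higher, and Ptprz1, lower (7.94%). Neu4 alone was lower in LPS-Saline than in Saline-Saline without overlap (9.12%). Without overlap there were 0 precursor genes for Saline-LPS against Saline-Saline (1.54% of all tested genes), LPS-LPS against LPS-Saline (3.73%), the first injection averaged (0.906%) and the second averaged (0.0053%). These comparisons share groups, so their values are given side by side and not as support for each other.

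The receptor of the set, Pdgfra (ENSMUSG00000029231, chromosome 5, 75152292 to 75198215, + strand, GRCm38), through which PDGF-A keeps precursors dividing, was the steadiest gene. It read 54.7, 55.6, 60 and 57.2 CPM in LPS-LPS brains, 54.1, 52.6, 57.1 and 54.6 CPM in LPS-Saline brains, 66, 56.3, 59.4 and 59.1 CPM in Saline-LPS brains and 62.9, 64.6, 58.4 and 54.5 CPM in Saline-Saline brains. All groups overlapped, and the within-group SD was 0.083 on the log2 scale, the lowest of the 10 genes. The averaged first-injection difference was -0.11 (95% interval -0.20 to -0.02, edgeR adjusted p = 0.13). Of the 6 PDGF ligands and receptors, Pdgfra included, 0 passed in this comparison by edgeR (2 at an unadjusted p under 0.05) or by DESeq2, with 6 of 6 below 0 and a median of -0.09. Fibroblasts, which also carry the receptor, were represented by 10 marker genes, of which 3 rose after first-injection LPS by edgeR (Slc22a6, a transporter, log2 0.37, adjusted p = 0.00346; Slc13a4, 0.23, 0.0309; Dcn, a matrix proteoglycan, 0.23, 0.0405). The summed level of these markers was 301.6 to 351.2 CPM in LPS-LPS, 280.9 to 342.3 in LPS-Saline, 249.1 to 347.0 in Saline-LPS and 251.5 to 306.5 CPM in Saline-Saline brains, and its part in the Pdgfra value was not tested.

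Among the proteoglycans, Cspg4 (ENSMUSG00000032911, chromosome 9, 56865033 to 56899870, + strand), which encodes NG2, varied most between mice of 1 group, with a within-group SD of 0.297 on the log2 scale. It averaged 22.6 ± 2.86 CPM after first-injection LPS and 23.6 ± 5.71 CPM after first-injection saline (SD, n = 8 each), a log2 difference of -0.06 with a wide interval (-0.35 to 0.23, edgeR adjusted p = 0.848). No direction can be given, since it was 0.26 within the 8 libraries with Gabra6 at 1 CPM or more and -0.14 within the others. Single mice of the Saline-LPS group ran from 16.9 to 32.3 CPM. Markers of mural cells, which also carry NG2, had 0 of 9 tested genes passing by edgeR or DESeq2 (10 listed, 1 at an unadjusted p under 0.05, median -0.19), with summed levels of 167.1 to 186.7 CPM in LPS-LPS, 179.3 to 208.3 in LPS-Saline, 153.6 to 248.1 in Saline-LPS and 168.8 to 243.0 CPM in Saline-Saline brains.

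Ptprz1 (ENSMUSG00000068748, chromosome 6, 22875502 to 23052916, + strand) encodes a receptor-type tyrosine phosphatase whose extracellular part carries chondroitin sulphate and binds pleiotrophin. It read 172.7, 171.1, 176.9 and 178.9 CPM in LPS-LPS brains, 191.6, 166.3, 179.1 and 188.0 CPM in LPS-Saline brains, 221.7, 182.7, 202.8 and 199.4 CPM in Saline-LPS brains and 197.4, 243.9, 178.8 and 213.7 CPM in Saline-Saline brains. The 4 LPS-LPS values sat close together and below all 4 Saline-LPS values, whereas Saline-Saline spanned a wide range that overlapped LPS-LPS in 1 mouse. Averaged over the second injection, Ptprz1 fell by 0.20 on the log2 scale (SE 0.05, 95% interval -0.32 to -0.09, edgeR adjusted p = 0.0263), to 178.1 ± 8.46 CPM after first-injection LPS, against 205.1 ± 21.2 CPM after first-injection saline (SD, n = 8 each). Its adjusted p ran from 0.00858 to 0.0583 when single libraries were left out and missed the threshold without LPS-LPS replicate 1 (0.0529) or 3 (0.0514), LPS-Saline replicate 2 or 3, or Saline-Saline replicate 2 or 4. Within the 8 libraries under 1 CPM of Gabra6 the difference was -0.22 (adjusted p = 0.329), and within the other 8 it was -0.20 (0.013). With each library's trend on exonic length and GC content removed, the difference was -0.09 with an adjusted p of 0.331.

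Vcan (ENSMUSG00000021614, chromosome 13, 89655312 to 89742509, - strand), which encodes the matrix proteoglycan versican, averaged 20.5 ± 1.39 CPM after first-injection LPS and 22.8 ± 2.21 CPM after first-injection saline (SD, n = 8 each). The log2 difference was -0.15 (edgeR adjusted p = 0.112), and -0.04 after the length and GC correction (adjusted p = 0.698). Its nearest value to the threshold was for LPS-LPS against Saline-Saline (log2 -0.24, adjusted p = 0.0827). Of 16 lecticans, matrix partners and phosphatase ligands, Cspg4, Vcan and Ptprz1 included, 2 rose and 3 fell by edgeR. Cspg5, the proteoglycan neuroglycan C, rose by 0.18 (adjusted p = 0.0145) and Hapln2, a link protein of myelinated axons, fell by 0.30 (0.0171), while Tnr, the matrix protein tenascin-R, fell by 0.18 (0.0246) and Ptn, pleiotrophin, rose by 0.18 (0.0369). Astrocytes are a further source of Ptprz1. Of 10 astrocyte markers, Gfap rose by 0.22 (adjusted p = 0.0116) while the glutamate transporter gene Slc1a2 fell by 0.22 (0.0156) and the connexin gene Gjb6 by 0.19 (0.0365). Their summed level was 4219.6 to 4596.5 CPM in LPS-LPS, 4149.3 to 4587.7 in LPS-Saline, 4468.1 to 5269.9 in Saline-LPS and 4272.0 to 5048.6 CPM in Saline-Saline brains, and its part in the Ptprz1 result was not tested.

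The 250 bases upstream of the annotated starts of Ptprz1 (chr6:22875252-22875501, + strand, 71.6% GC) and Vcan (chr13:89742513-89742762, - strand, 62.4% GC) are shown, 5′ to 3′ on each gene's strand, because these 2 proteoglycan genes varied together between mice. Both come from RefSeq on GRCm38.p6.
Ptprz1: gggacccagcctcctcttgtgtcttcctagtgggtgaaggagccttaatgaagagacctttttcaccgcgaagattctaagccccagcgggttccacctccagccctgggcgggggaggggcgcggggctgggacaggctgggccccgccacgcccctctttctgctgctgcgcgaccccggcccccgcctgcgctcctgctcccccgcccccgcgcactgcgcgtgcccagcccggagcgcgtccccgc
Vcan: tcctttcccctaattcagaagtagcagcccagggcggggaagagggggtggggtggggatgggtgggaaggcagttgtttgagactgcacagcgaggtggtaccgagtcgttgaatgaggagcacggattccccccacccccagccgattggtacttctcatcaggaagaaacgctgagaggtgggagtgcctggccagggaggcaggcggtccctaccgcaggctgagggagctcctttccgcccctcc
RefSeq windows were used for 8 of the 10 genes, none for Gpr17 and C1ql1. Both strands were searched for ACAAAG, a core of SOX factor sites, for CAGCTG, an E-box bound by basic helix-loop-helix factors, and for ATCAAAG, a core of TCF/LEF sites. Of 32817 windows of the same length, 16.5% held ACAAAG, 13% CAGCTG and 3.21% ATCAAAG. Neither sequence above held any of these letters. ACAAAG was found in 1 precursor gene, in a window inside Tcf7l2, and ATCAAAG in 0. CAGCTG was found in 1, Lhfpl3, with 2 copies close together (chr5:22745891-22745920, + strand), shown with the E-box in capitals because this pair was the E-box match among the windows used.
Lhfpl3: ggcttCAGCTGcagCAGCTGcagcaacgag
A match is a run of letters and does not show that a factor binds there.

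Among the other genes of the precursor stage, C1ql1 (ENSMUSG00000045532, chromosome 11, 102939264 to 102946688, - strand), a secreted C1q-related protein made by precursors and also by inferior olive neurons, rose. It read 18.8, 17.7, 22.7 and 20.5 CPM in LPS-LPS brains, 20.5, 17.3, 20 and 18.1 CPM in LPS-Saline brains, 15.1, 17.5, 16.6 and 16.6 CPM in Saline-LPS brains and 18, 18.3, 17.9 and 16.1 CPM in Saline-Saline brains. The 4 LPS-LPS values all lay above the 4 Saline-LPS values, while LPS-Saline and Saline-Saline overlapped. The averaged difference was 0.19 on the log2 scale (SE 0.06, 95% interval 0.07 to 0.32, edgeR adjusted p = 0.0488), with 19.5 ± 1.81 CPM after first-injection LPS and 17 ± 1.11 CPM after first-injection saline (SD, n = 8 each). The adjusted p was 0.12 without LPS-LPS replicate 3 and 0.0581 without LPS-LPS replicate 1, and passed only without LPS-LPS replicate 2, LPS-Saline replicate 2 or 4, or Saline-LPS replicate 2 when each of the 16 was left out in turn (0.0322 to 0.12). Within the 8 libraries under 1 CPM of Gabra6 it was 0.08 (0.713), and within the other 8 it was 0.29 (0.0319). After the length and GC correction the difference was -0.01 (95% interval -0.12 to 0.11, adjusted p = 0.967). Markers of hindbrain and inferior olive were scarce, with 4 of 10 tested, 0 called by edgeR or DESeq2, 0 at an unadjusted p under 0.05, 2 at 0 in every library and 6 under 1 CPM in every library.

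Lhfpl3 (ENSMUSG00000106379, chromosome 5, 22746059 to 23275597, + strand), a membrane protein of the tetraspan superfamily enriched in precursors, read 26.8, 27.9, 29.1 and 29.1 CPM in LPS-LPS brains, 25.3, 26.7, 29.6 and 31.6 CPM in LPS-Saline brains, 26, 31, 33.3 and 37.9 CPM in Saline-LPS brains and 30.4, 32, 32.5 and 32.4 CPM in Saline-Saline brains. LPS-LPS lay wholly below Saline-Saline. Saline-LPS ran from 26 CPM, close to the lowest value of all (25.3 CPM, in LPS-Saline), to the highest of all at 37.9 CPM. The averaged difference was -0.18 (95% interval -0.31 to -0.05, edgeR adjusted p = 0.088). Unlike those of Ptprz1 and C1ql1 it kept its size after the length and GC correction, where it passed (-0.16, 95% interval -0.24 to -0.08, adjusted p = 0.0307; 3.21% of all tested genes passed in that fit). It also passed with the replicate number as a block (adjusted p = 0.0159) and with Gabra6 as a covariate (0.00778), in fits that called 13.2% and 14.6% of all tested genes, and without Saline-LPS replicate 1 (0.0165). It missed the threshold when any other single library was left out (0.0513 to 0.189). The same held for DESeq2 (adjusted p = 0.0614), and for edgeR with RLE scaling (0.081) or no filter (0.107). Within the 8 libraries under 1 CPM of Gabra6 it was -0.20 (0.268), and within the other 8 it was -0.24 (0.0412).

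Of the committed-precursor genes, Gpr17 (ENSMUSG00000052229, chromosome 18, 31942997 to 31949636, - strand), a receptor that holds cells at the stage before myelin, read 75, 75, 72.3 and 67.1 CPM in LPS-LPS brains, 77.5, 76, 71.9 and 77.4 CPM in LPS-Saline brains, 109.1, 85.2, 72.9 and 59.1 CPM in Saline-LPS brains and 97.5, 98.9, 74 and 92.8 CPM in Saline-Saline brains. All first-injection LPS values lay between 67.1 and 77.5 CPM, inside the range of 59.1 to 109.1 CPM after first-injection saline. The averaged difference was -0.22 (95% interval -0.42 to -0.01, edgeR adjusted p = 0.186), and -0.21 (0.181) after the length and GC correction. It was -0.13 (0.293) without Saline-LPS replicate 1 and -0.28 (0.029) without Saline-LPS replicate 4, the highest and the lowest mouse. Within the 8 libraries under 1 CPM of Gabra6 it was -0.29 (0.243), and within the other 8 it was -0.04 (0.846). Gpr17 overlaps Lims2, a protein-coding gene on the opposite strand, and the strand setting of the counting is not given. Whether reads from the overlap were counted for Gpr17 or left out as ambiguous is therefore not known.

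Neu4 (ENSMUSG00000034000, chromosome 1, 94020451 to 94028334, + strand), a sialidase that removes polysialic acid, read 14.7, 14.7, 13.5 and 15.7 CPM in LPS-LPS brains, 14.7, 14.1, 14 and 13.1 CPM in LPS-Saline brains, 16.5, 16.9, 16.7 and 14.1 CPM in Saline-LPS brains and 15.6, 17.2, 15.9 and 15 CPM in Saline-Saline brains. It was lower in all 4 LPS-Saline than in all 4 Saline-Saline brains, by small steps. The averaged difference of -0.16 was the same after the length and GC correction (edgeR adjusted p = 0.0737 and 0.0863), short of the threshold in both fits. Without Saline-LPS replicate 4 it passed (-0.19, adjusted p = 0.0338).

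Bmp4 (ENSMUSG00000021835, chromosome 14, 46383520 to 46390669, - strand), a secreted ligand that steers precursors away from the oligodendrocyte fate, rested on 132 to 234 counts per library, the fewest of the set. It averaged 5.83 ± 0.79 CPM after first-injection LPS and 5.45 ± 0.631 CPM after first-injection saline (SD, n = 8 each; log2 0.10, 95% interval -0.09 to 0.29, edgeR adjusted p = 0.566). Around it, 4 of 22 BMP pathway genes rose and 1 fell, with a median of -0.03. The ligands Bmp7 (log2 0.36, adjusted p = 0.0038) and Bmp6 (0.25, 0.0183), the antagonist Nog (0.25, 0.0119) and the target Id3 (0.25, 0.0322) rose, and the receptor Bmpr2 fell by 0.15 (0.0393). After the length and GC correction 1 of the 22 rose and 0 fell.

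Tcf7l2 (ENSMUSG00000024985, chromosome 19, 55741820 to 55933654, + strand), a Wnt effector that cells need to start myelination, showed the largest first-injection difference of the 10 genes without passing by edgeR. It read 28, 24.1, 28.1 and 21 CPM in LPS-LPS brains, 26.2, 23.2, 23.5 and 33.9 CPM in LPS-Saline brains, 42.7, 25.3, 28.1 and 27.9 CPM in Saline-LPS brains and 38.4, 31.2, 30.6 and 34 CPM in Saline-Saline brains. LPS-LPS lay wholly below Saline-Saline, while single high mice stood out in LPS-Saline and Saline-LPS. The averaged difference was -0.31 (95% interval -0.55 to -0.08, edgeR adjusted p = 0.0979). DESeq2 called it (-0.32, adjusted p = 0.0321). After the length and GC correction in edgeR it was -0.24 (adjusted p = 0.25). In the uncorrected edgeR fit it passed without LPS-Saline replicate 4 (-0.38, 0.0335) and was -0.22 (0.137) without Saline-LPS replicate 1. Within the 8 libraries under 1 CPM of Gabra6 it was -0.47 (0.237), and within the other 8 it was -0.17 (0.55). Of 18 Wnt and TCF pathway genes, Tcf7l2 included, 0 passed by edgeR (4 had an unadjusted p under 0.05), DESeq2 called 2, with a median of -0.05. Thalamic neurons also transcribe Tcf7l2, and of 13 thalamus and midbrain markers 2 fell by edgeR (Rora, a nuclear receptor, -0.27, adjusted p = 0.0327; Plekhg1, -0.56, 0.0424). Their summed level was 655.4 to 738.9 CPM in LPS-LPS, 712.4 to 821.5 in LPS-Saline, 717.9 to 902.9 in Saline-LPS and 811.5 to 877.9 CPM in Saline-Saline brains, and its part in the Tcf7l2 value was not tested.

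**Figure D2:**
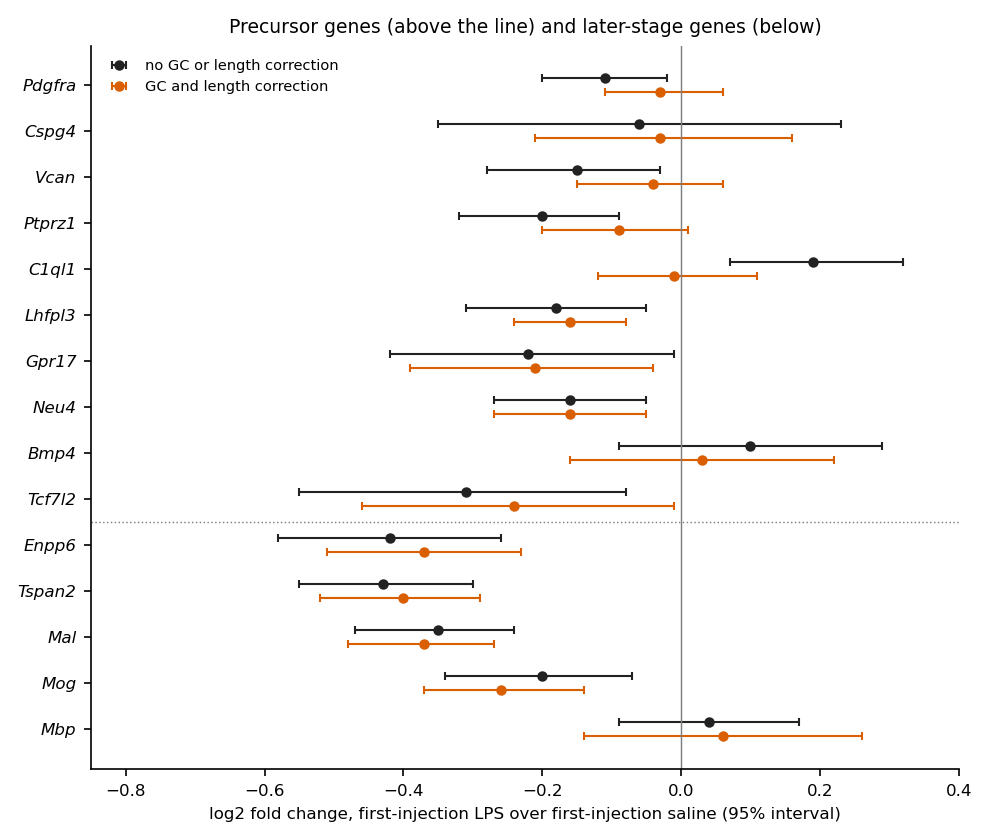
Log2 fold change, first-injection LPS over first-injection saline, with 95% intervals from edgeR for the 10 precursor genes (above the dotted line) and 5 genes of later stages (below it); black, no correction, orange, each library's trend on length and GC content removed. C1ql1 was at 0.19 without and -0.01 with the correction, while Lhfpl3 (-0.18 and -0.16), Tspan2 (-0.43 and -0.40) and Mal (-0.35 and -0.37) stayed close.

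Mature myelin, the end of the lineage, is set beside the precursor genes here. In the same comparison 10 of 24 mature myelin genes fell by edgeR and 0 rose (median -0.22, 22 of the 24 below 0). Tspan2, a tetraspanin of myelinating cells, read 148.3, 149.4, 152.6 and 147.1 CPM in LPS-LPS brains, 156.7, 144.2, 159.0 and 192.1 CPM in LPS-Saline brains, 213.0, 156.7, 209.2 and 200.6 CPM in Saline-LPS brains and 233.0, 225.7, 214.6 and 231.8 CPM in Saline-Saline brains. LPS-LPS was below every Saline-LPS and Saline-Saline mouse, and the averaged difference was -0.43 (edgeR adjusted p = 0.000478). Mal, a proteolipid of compact myelin, fell by 0.35 (0.00143), Gjc3, a connexin, by 0.36 (0.00493) and Gpr37, a receptor of maturing oligodendrocytes, by 0.32 (0.0108). Mbp, a main protein of compact myelin, had a value of 0.04 (0.785), and Mog, a surface protein of myelin, -0.20 (0.0608).

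Of 17 genes of newly forming oligodendrocytes 4 fell and 0 rose, with 17 of 17 below 0 and a median of -0.17. Enpp6, a choline phosphodiesterase that marks the earliest myelinating cells, averaged 14 ± 2 CPM after first-injection LPS and 18.7 ± 2.02 CPM after first-injection saline (SD, n = 8 each; log2 -0.42, edgeR adjusted p = 0.00346). Ccp110, a centriolar protein, fell by 0.30 (0.00271), Nfasc, an adhesion molecule of the node, by 0.33 (0.0342) and Plxnb3, a semaphorin receptor, by 0.57 (0.0453). Among 20 further precursor markers 1 rose (Cspg5) and 2 fell (Sox6, a transcription factor that keeps precursors immature, by 0.22, adjusted p = 0.0236, and Tnr), with a median of -0.02. Of 17 lineage transcription factors Hes5, a Notch target, rose by 0.46 (0.0199), and Zfp488 and Zfp536, zinc-finger factors, fell by 0.34 and 0.30 (0.0195 and 0.0218), together with Sox6. Of 10 proliferation genes 0 passed by edgeR (3 had an unadjusted p under 0.05), DESeq2 called 1, with a median of 0.21. Whether these lists differ from the precursor genes was not tested.

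**Figure D3:**
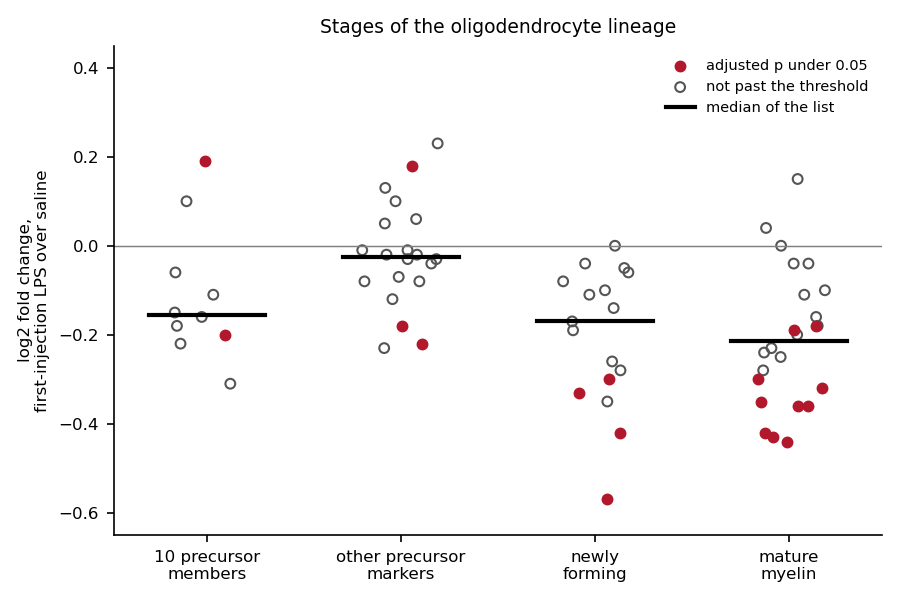
Log2 fold change, first-injection LPS over first-injection saline, for each gene (circle) of 4 lists along the lineage; filled circles passed the adjusted threshold of 0.05 by edgeR, and bars are list medians. The medians were -0.16 for the 10 precursor genes, -0.02 for other precursor markers, -0.17 for newly forming oligodendrocytes and -0.22 for mature myelin.

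With the length and GC correction, 9 mature myelin genes and 5 newly forming oligodendrocyte genes fell, against 1 precursor gene (Lhfpl3), and the medians were -0.26, -0.12 and -0.07. In the fit without this correction these lists had 10, 4 and 2 calls. Leaving out LPS-LPS replicate 3 from that fit left 6, 2 and 0, and leaving out LPS-LPS replicate 1 left 6, 3 and 0. Over all tested genes the calls also fell, from 1476 to 736 and 917. Of the other precursor markers 1 rose and 0 fell after the correction, so that the falls of Sox6 and Tnr rest on the uncorrected fit, and 1 rose and 1 fell without LPS-LPS replicate 3. Without LPS-LPS replicate 3, the BMP pathway list had 3 genes higher and 0 lower, the lecticans and partners 1 and 1, the lineage transcription factors 1 and 2, the astrocyte markers 1 and 1, the fibroblast markers 1 and 0 and the thalamus and midbrain markers 0 and 0. Without LPS-LPS replicate 1 these lists had 3 and 0, 1 and 2, 1 and 3, 1 and 1, 2 and 0, and 0 and 1. Taken per mouse as the mean log2 CPM of a list, the precursor genes minus the mature myelin genes stood at -1.51 ± 0.03 in LPS-LPS, -1.52 ± 0.16 in LPS-Saline, -1.61 ± 0.23 in Saline-LPS and -1.62 ± 0.16 in Saline-Saline brains (SD, n = 4 each), a description that carries no test.

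Exonic length went with the direction of change over all genes, and the precursor genes include some of the longest. In genes of at least 10000 exonic bases the median first-injection difference was -0.09, and 14% fell by edgeR against 0.134% that rose. In genes under 2000 bases the median was 0.06, with 8.93% higher and 0.558% lower. Ptprz1 (14245 bases), Vcan (14462), Cspg4 (11931) and Pdgfra (10024) belong to the longest class, and C1ql1 (1473 bases, 65.8% GC) to the shortest. Each library's deviations from the mean correlated with length over 18820 genes at Spearman values of -0.267 to -0.013 in the 8 first-injection LPS libraries and -0.0542 to 0.189 in the 8 first-injection saline libraries.

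**Figure D4:**
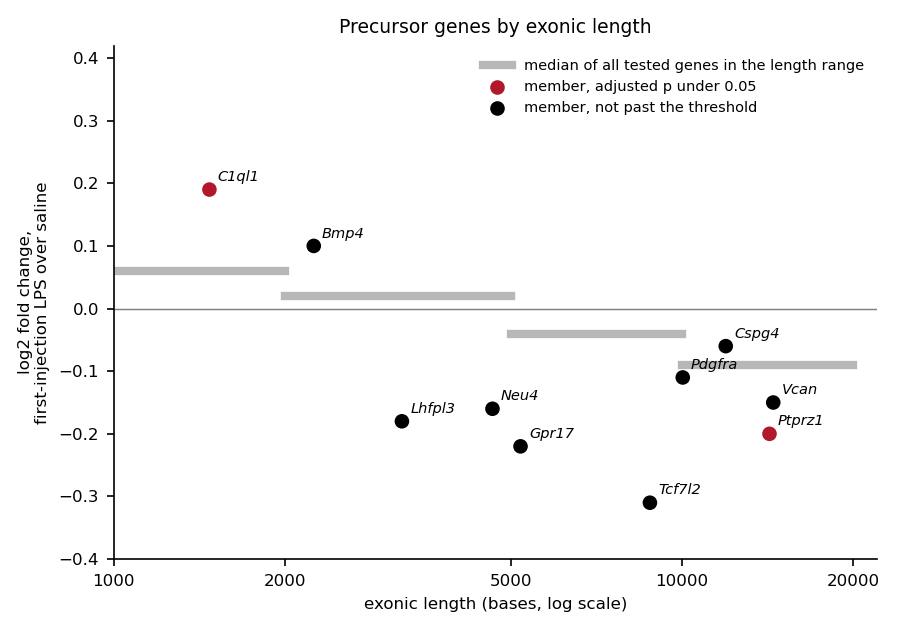
Log2 fold change, first-injection LPS over first-injection saline, against exonic length (log axis) for the 10 precursor genes, with the median of all tested genes in each length range as grey bars. C1ql1 at 1473 bases and Ptprz1 at 14245 bases, the 2 genes that passed, lie at the short and the long end.

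After the second injection the precursor genes did not move detectably. For Saline-LPS against Saline-Saline, LPS-LPS against LPS-Saline, the average of both and the interaction, edgeR called 0 precursor genes and 0% of all tested genes, and DESeq2 called 0 precursor genes. The unadjusted p was under 0.05 for 0 of the 10 in each, against 2.83%, 4.01%, 5.02% and 2.13% of all tested genes. The averaged second-injection differences ran from -0.11 to 0.06 on the log2 scale, and over the 10 genes their 95% intervals stayed within -0.33 and 0.27. The interaction, the first-injection difference before the second LPS minus that before the second saline, ran from -0.01 to 0.18 over the 10 genes. Its 95% interval was narrowest for Pdgfra (-0.13 to 0.24) and widest for Cspg4 (-0.52 to 0.65), with -0.23 to 0.22 for Ptprz1 and -0.08 to 0.41 for C1ql1.

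Between mice of 1 group, several precursor genes varied from library to library. Cspg4 was at 16.9 to 27.5 CPM (median 19.8) in the 8 libraries with Gabra6 at 1 CPM or more and at 21.2 to 32.3 CPM (median 24.9) in the 8 with less. Its slope on log2 Gabra6, an analysis chosen after the values were seen, was -0.060 ± 0.011 log2 per log2 unit (SE, edgeR adjusted p = 0.001), and -0.037 ± 0.008 (0.00481) after the length and GC correction. Of all tested genes 22% passed for this slope, and 8.31% with the correction. Lhfpl3 had a slope of 0.024 ± 0.007 (0.0137) that was -0.004 (0.682) with the correction, and the other 8 precursor genes had adjusted p-values of 0.177 or more.

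The 2 genes at the ends of this pattern are set beside how each library's counts ran with GC content over all genes, a description without a test. Lhfpl3, the precursor gene with the lowest GC content (39.5%), was highest at 37.9 CPM in Saline-LPS replicate 4, the library with the most negative GC trend (Spearman -0.435), and lowest at 25.3 CPM in LPS-Saline replicate 1, the one with the most positive (0.336). Cspg4 (58.2% GC) was at 17.8 and 24 CPM in the same libraries, which were not its extremes. Its lowest value was 16.9 CPM in Saline-LPS replicate 3 (GC trend -0.336). Its highest was 32.3 CPM in Saline-LPS replicate 1 (0.236). The parts of tissue composition, replicate number and GC content in these values cannot be told apart here.

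**Figure D5:**
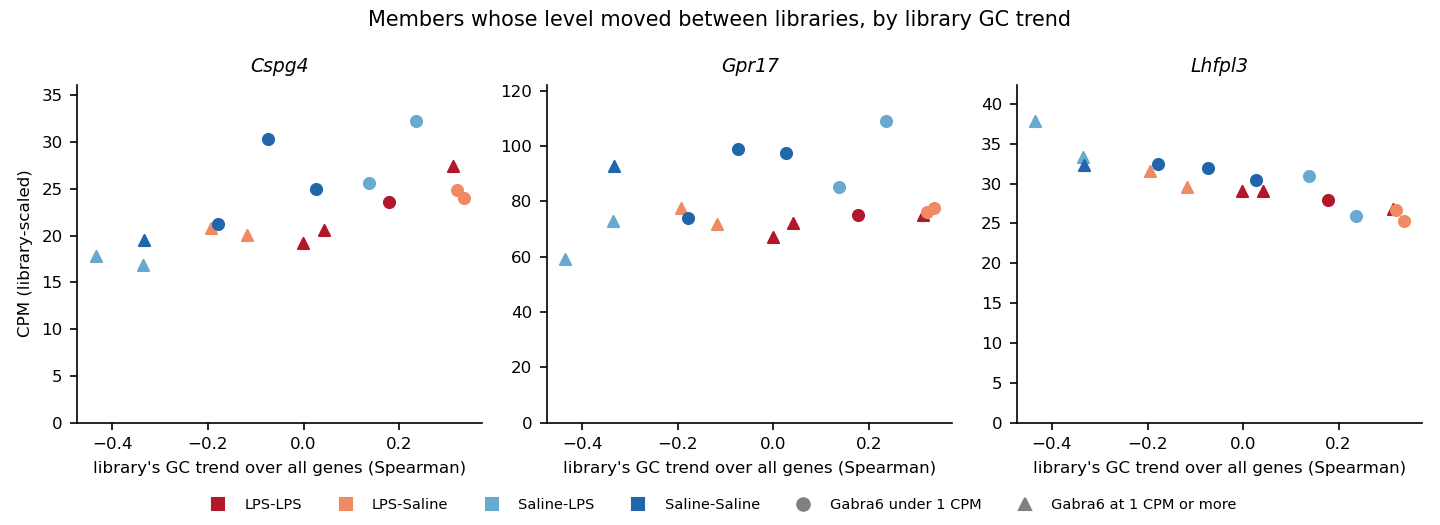
CPM of Cspg4, Gpr17 and Lhfpl3 against each library's GC trend (Spearman correlation of its deviations with gene GC content); colours are groups, circles libraries under 1 CPM of Gabra6 and triangles the others. Lhfpl3 runs down from 37.9 CPM at -0.435 to 25.3 CPM at 0.336, while Cspg4 and Gpr17 tend to run up.

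The precursor genes did not vary as 1 block. Over the 45 pairs, Pearson's r of deviations from group means (n = 16 libraries) had a median of 0.09 and a range of -0.78 to 0.78, and 18 pairs were below 0. With 100000 permutations and Benjamini-Hochberg adjustment over the 45 pairs, 4 passed. Cspg4 and Gpr17 rose and fell together (r = 0.78, Spearman's rho 0.83, permutation p = 0.0002 and 0.00017, adjusted p = 0.00697 for r), and r was 0.68 without the 2 libraries farthest from the median of Cspg4 and 0.67 after the length and GC correction. Vcan and Ptprz1 did so as well (r = 0.72, rho 0.71, permutation p = 0.00158 and 0.00244, adjusted p = 0.0178), with 0.62 and 0.50 under the same checks. Lhfpl3 ran opposite to Cspg4 (r = -0.77, rho -0.79, permutation p = 0.00031 and 0.00036, adjusted p = 0.00697), with -0.67 without 2 libraries. It also ran opposite to Gpr17 (r = -0.78, rho -0.71, permutation p = 0.00127 and 0.0027, adjusted p = 0.0178). Without the 2 libraries farthest from the median of Gpr17 this r was -0.35, so its size depends on them, while rho was not recomputed. After the correction these 2 opposite relations were at 0.41 and -0.01. The permutations treat the 16 libraries as exchangeable, yet libraries with the same replicate number deviated together: Cspg4 was higher in replicates 1 and 2 than in replicates 3 and 4 in each of the 4 groups. With replicate-number means also removed, an analysis added after the values were seen, r was 0.59 for Cspg4 and Gpr17, 0.81 for Vcan and Ptprz1, -0.37 for Cspg4 and Lhfpl3 and -0.63 for Gpr17 and Lhfpl3.

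As a description, over 13641 genes ranked, genes whose deviations ran close to the mean of the 10 precursor genes (n = 16 libraries) included Cx3cr1 and Fmnl2 (r = 0.89 each), Nwd1 (0.88), Id3 (0.86), Tmc7 (0.85), Epb41l2 (0.84) and Plcb3, Tifab and Tubb2b (0.83 each). Near neighbours of single genes included Gpc5 for Pdgfra (0.90), Slc39a2, Pecam1 and Ankrd52 for Cspg4 (0.97 each), Lpar2 for Gpr17 (0.95), Fgfr2 for Tcf7l2 (0.93), Fmnl2 for Ptprz1 (0.90), Zc2hc1a for Lhfpl3 (0.97) and Spsb4 for C1ql1 (0.90). The points share tissue makeup, depth and GC trend.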

How the data were processed

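Total RNA of 16 brains, described as whole, was sequenced. The deposited values are raw counts of reads for each Ensembl gene; per the submitters' processing notes, the tools were STAR 2.5.2b and HTSeq 0.11.2 and the build GRCm38. How the counting treated strand, which annotation it used and any filter on reads: not given in the sources used here. The 5 special entries entered neither library sizes nor tests: reads without a gene made up 8.37 to 11% of all counts, ambiguous reads 5.11 to 5.48% and reads not aligned uniquely 3.18 to 3.9%. Symbols, lengths and coordinates came from GENCODE M21 (49326 identifiers matched, 345 not).

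Counts were tested with edgeR 4.0.16 in R 4.3.3: filterByExpr (18875 genes kept), TMM scaling, and a robust quasi-likelihood fit of the 4 groups over all 16 libraries, two-sided, with Benjamini-Hochberg adjustment over all tested genes and a threshold of 0.05; the coefficient of biological variation came to 10.4%. CPM were computed from the counts with TMM-scaled library sizes. Reads carried no molecular identifiers, while SDs and intervals include the spread between mice. Alternatives were DESeq2 1.42.0, RLE scaling, no filter, a replicate block, offsets for exonic length and GC content (both known for 99.7% of tested genes), Gabra6 as covariate or split, and leaving out each library. Deviations from group means (13116 genes) were correlated between libraries with the same replicate number. The correlations were 0.162 to 0.65 for LPS-Saline against Saline-Saline, 0.29 to 0.395 for LPS-LPS against Saline-LPS and 0.203 to 0.366 for LPS-LPS against LPS-Saline. All were over 0.1, so in these comparisons the numbers were treated as a possible pairing, although the labels name no pairs. Of the 16 libraries, 6 had a higher correlation with another number. The Gabra6 split nearly followed the replicate number, and its part in these correlations was not tested. For LPS-LPS against Saline-Saline (0.0131 to 0.403) and Saline-LPS against Saline-Saline (0.0457 to 0.374) the numbers were not treated so. The tests hold no block. Adding it as an alternative changed no call of a precursor gene in the 3 comparisons with a possible pairing. For the averaged first injection it added Lhfpl3 (edgeR adjusted p = 0.088 without and 0.0159 with the block). There, calls over all tested genes went from 1476 to 2495.

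All 10 precursor genes are counted in every comparison; the rule for names takes up to 4 called genes by smallest p from each other list (Bmpr2 and Ptn were added after their values were seen), 5 later-stage genes and Gabra6; results of some genes that this rule takes are not reported here. The members and lists were chosen with earlier results of these data known. Further lists, not described with values above, held for the averaged first injection 7 of 12 microglia genes higher (median 0.46), 2 of 10 neuron genes higher, 1 of 6 tested pituitary genes higher, 0 of 12 cerebellum genes by edgeR, DESeq2 or an unadjusted p under 0.05, and 0 of 10 choroid plexus genes by edgeR (2 at an unadjusted p under 0.05, 1 by DESeq2; median -0.25).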

Additional observations from a re-analysis of the deposited data

Results flagged for a closer look

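In 5 of 64 groups of 4 mice (16 genes in 4 groups), 1 mouse lay far from the other 3 by Dixon's test at 95%. Chance alone gives about 1 in 20 such groups. Neu4 was at 14.1 CPM in Saline-LPS replicate 4, below the other Saline-LPS mice at 16.5 to 16.9 CPM. Bmp4 was at 6.54 CPM in LPS-Saline replicate 3, above the others at 5.1 to 5.25 CPM, and at 4.16 CPM in Saline-LPS replicate 1, below the others at 5.62 to 5.92 CPM. Tcf7l2 was at 42.7 CPM in Saline-LPS replicate 1, above the others at 25.3 to 28.1 CPM. Enpp6 was at 18.2 CPM in LPS-Saline replicate 4, above the others at 12.9 to 13.5 CPM.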

How the results depend on the processing

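For the averaged first injection, where 2 precursor genes passed, DESeq2 called 4 (C1ql1, Neu4, Ptprz1 and Tcf7l2), RLE scaling 1 and no filter 1 (Ptprz1 each), the length and GC correction 1 and the replicate block with that correction 1 (Lhfpl3 each), and the 8 libraries under 1 CPM of Gabra6 gave 0. The replicate block, Gabra6 as covariate and the 8 libraries at 1 CPM or more of Gabra6 gave 3 each (C1ql1, Lhfpl3 and Ptprz1). Leaving out single libraries gave 0 to 3. For LPS-LPS against Saline-Saline, with 0 called, DESeq2, RLE scaling, no filter and the replicate block gave 1 each (Ptprz1; 9.42%, 6.59%, 2.94% and 11.6% of all tested genes in these fits), Gabra6 as covariate 3 (Lhfpl3, Ptprz1 and Vcan; 12% of all), and leaving out single libraries 0 to 3, the 3 being Gpr17, Ptprz1 and Tcf7l2 without Saline-LPS replicate 1 (10.3% of all). In the other 6 comparisons 0 were called under each alternative run. The C1ql1 difference for the averaged first injection turned to -0.01 with the length and GC correction, and to -0.01 with the replicate block and that correction. Of 1880 recomputed values of single genes, 24 lost the threshold, 24 gained it, and among called values these 2 turned; changes of sign in values that never passed were not counted. Cspg4, at -0.06 for the averaged first injection, was one such, at 0.03 with Gabra6 as covariate, 0.26 within the libraries at 1 CPM or more, 0.04 without Saline-LPS replicate 1 and 0.01 without Saline-Saline replicate 2. The causes were not tested. Over all genes the averaged first injection called 1476 of 18875 tested. DESeq2 called 2086 (11.1%), RLE scaling 1442 and no filter 1220 of 34968. The length and GC correction called 605 (3.21%), and 1070 together with the replicate block. The replicate block alone called 2495 (13.2%) and Gabra6 as covariate 2756 (14.6%). Within the libraries under 1 CPM of Gabra6 28 of 20003 were called, and 991 of 19896 within the others. Leaving out single libraries gave 700 to 1645, with 736 without LPS-LPS replicate 3 and 917 without LPS-LPS replicate 1. The counts of precursor genes given here are to be read beside these totals. Bmp4, at 132 to 234 counts per library, is the gene for which depth most limits precision.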
